A study of Mus musculus with 8 samples.

Results

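Replication-dependent histone genes encode the H1 linker histones and the H2A, H2B, H3 and H4 core histones that package newly made DNA. They were taken here as the genes of the deposited table whose symbols carry the cluster names of these families (H1f, H2ac, H2bc, H2bu, H3c, H4c or H4f with a number, or the older form Hist with a number), leaving out H1f0 and H2ax. This gave 55 of the 1994 listed genes, namely 5 of H1, 11 of H2A, 17 of H2B, 10 of H3 and 12 of H4. Of 72 gene symbols in RefSeq that follow the same rule, 48 were listed (5 of 10 for H1, 9 of 19 for H2A, 14 of 18 for H2B, 10 of 12 for H3 and 10 of 13 for H4), and 7 further members carried older Hist symbols. The rule goes by symbol alone, so these counts can take in genes that are not replication-dependent. A gene outside the table is called not listed, and nothing is said of its level.

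RNA was taken from flushed femoral cortical bone of mice aged 16 weeks. Control mice were Fgfr1f/f, and FGFR1-CKO mice were DMP1-CreER; Fgfr1f/f, in which Cre recombinase acts once tamoxifen is given, in the cells where the Dmp1 promoter works, mainly osteocytes and late osteoblasts. Tamoxifen (400 mg/kg in the chow) was given to both genotypes for 4 weeks, starting at 12 weeks. No Cre is named for Control, so carrying Cre cannot be told apart from losing Fgfr1. There were 4 libraries per group, picked by the submitters from 6 Control and 7 FGFR1-CKO samples as those with the highest and the lowest Fgfr1.

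Transcripts of these genes are known to rise at the start of DNA synthesis and to be destroyed at its end, so that histone supply follows DNA replication. Most end in a short stem-loop instead of a poly(A) tail, bound by the stem-loop binding protein. Selecting RNA by poly(A) therefore loses them, whereas these libraries were made by removing ribosomal RNA and priming with random hexamers. In bone marrow the dividing precursors of blood cells are a well known source of histone mRNA.

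The sequence feature that sets these mRNAs apart from nearly all others is shown first. A stem of 6 bases closing a loop of 4, in the letters of the histone stem-loop, was found in the GENCODE M21 transcripts of 39 of the 55 genes. The search went by letters anywhere in a transcript and did not require the arms of the stem to pair. It matched 84 of 22028 protein-coding genes (0.381%), of which 46 were canonical histones by name. The 8 examples below were picked to show how the stem and the loop vary. They are written as DNA on the transcript strand, with the 16 bases of the stem-loop in capitals and 5 flanking bases on each side.
H1f2: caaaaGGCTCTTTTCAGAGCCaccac
H2ac4: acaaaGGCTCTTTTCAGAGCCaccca
H2bc3: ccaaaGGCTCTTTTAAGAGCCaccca
H2bu2: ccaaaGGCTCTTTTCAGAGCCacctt
H3c3: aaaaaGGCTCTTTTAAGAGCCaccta
H4c4: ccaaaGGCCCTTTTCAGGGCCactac
H4c14: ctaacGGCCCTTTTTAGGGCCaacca
H4c11: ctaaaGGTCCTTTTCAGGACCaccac

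The opening bases of the stem divided by core type. All 28 stem-loops found in H1, H2A, H2B and H3 genes opened with GGCTC. Of the 11 found in H4 genes, 10 opened with GGCCC and the other, H4c11, with GGTCC. There were 8 distinct stem-loops, the commonest being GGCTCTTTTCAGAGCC in 21 genes, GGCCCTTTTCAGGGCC in 7 and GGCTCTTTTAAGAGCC in 5. Of the 16 genes in which the letters were not found, 14 have transcript models whose length is a multiple of 3, as models of coding sequence alone do. In 20 genes the model runs on for over 100 bases past the stem-loop, the longest such stretches being 4884 bases in H1f3 and 2445 in H4f16. Such models, if used for counting, can take in reads from transcripts that are not cut at the stem-loop. The gene models behind the deposited values are not named in the submitters' processing list. The part of those reads in the values was not tested. The median log2 fold change between genotypes was 0.92 for the 39 genes with the letters and 0.97 for the 16 without.

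Promoters from RefSeq (build GRCm38.p6, 250 bases before to 50 after the start) were matched to 43 of the 55 genes, and 27025 promoters of all genes served for comparison. The motifs searched were the TATA box TATAAA on the gene's strand, the CCAAT box CCAAT on both strands, the octamer ATTTGCAT on both strands and the E-box CACGTG, which reads the same on both strands. TATAAA stood in 23 of 43 histone promoters (53.5%) and in 8.88% of all promoters. CCAAT stood in 37 of 43 (86.0%) and in 37.9% of all. It was found in all 34 promoters of H1, H2A, H2B and H3 genes and in 3 of 9 H4 promoters. ATTTGCAT, known from H2B promoters as a binding sequence of the octamer factor Oct1, stood in 5 of 9 H2A and 5 of 12 H2B promoters and in none of the 22 of H1, H3 and H4, against 1.75% of all promoters. H2A and H2B genes that lie head to head can have overlapping windows, so a motif can count in both. Both partners held ATTTGCAT in H2ac12 with H2bc12 and in H2ac8 with H2bc8. CACGTG stood in 0 of 43, against 7.24% of all.

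The promoters of 4 genes are printed as examples. H4f16 and H2bu2 had the highest log2 fold changes of the 55, and H4c4 had the most reads. H2bc3, one of the named H2B genes, holds the octamer. Whether motifs go with level or fold change was not tested. Capitals mark the motifs named above.
H4f16 promoter, chr6:136804382-136804681, minus strand: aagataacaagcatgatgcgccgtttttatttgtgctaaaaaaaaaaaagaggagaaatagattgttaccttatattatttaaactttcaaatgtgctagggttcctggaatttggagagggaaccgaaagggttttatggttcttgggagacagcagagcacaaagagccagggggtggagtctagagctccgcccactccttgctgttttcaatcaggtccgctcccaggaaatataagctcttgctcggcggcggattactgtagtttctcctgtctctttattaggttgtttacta
H2bu2 promoter, chr11:58948661-58948960, plus strand: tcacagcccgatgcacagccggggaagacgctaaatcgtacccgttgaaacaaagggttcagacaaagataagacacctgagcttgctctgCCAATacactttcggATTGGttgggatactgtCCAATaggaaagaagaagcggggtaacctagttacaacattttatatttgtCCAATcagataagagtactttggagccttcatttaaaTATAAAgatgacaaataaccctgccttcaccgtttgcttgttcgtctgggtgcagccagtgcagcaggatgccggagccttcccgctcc
H4c4 promoter, chr13:23581318-23581617, plus strand: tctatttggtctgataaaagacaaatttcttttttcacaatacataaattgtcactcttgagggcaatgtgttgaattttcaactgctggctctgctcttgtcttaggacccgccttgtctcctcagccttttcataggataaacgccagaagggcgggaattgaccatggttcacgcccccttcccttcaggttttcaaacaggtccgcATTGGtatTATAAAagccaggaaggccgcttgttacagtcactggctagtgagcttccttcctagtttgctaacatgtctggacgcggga
H2bc3 promoter, chr13:23746484-23746783, plus strand: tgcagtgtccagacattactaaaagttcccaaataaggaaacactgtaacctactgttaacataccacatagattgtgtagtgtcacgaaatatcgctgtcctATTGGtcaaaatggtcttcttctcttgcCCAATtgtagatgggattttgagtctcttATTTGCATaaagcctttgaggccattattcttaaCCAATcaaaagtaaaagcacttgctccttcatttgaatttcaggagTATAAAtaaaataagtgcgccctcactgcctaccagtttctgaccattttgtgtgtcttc
The H4f16 window held none of the 4 motifs. The H2bu2 window held a TATA box and CCAAT boxes on both strands. The H4c4 window held a TATA box and a CCAAT box on the opposite strand. The H2bc3 window held a TATA box, CCAAT boxes on both strands and the octamer. A match is a description of letters and not evidence of binding.

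The libraries held 9642436 to 11094287 reads, of which the listed genes took 24.2% to 35.1%, and a histone gene had 48 to 11966 reads per library. Fgfr1, the targeted receptor gene, fell from 594 ± 71.3 to 318 ± 32.1 CPM (SD, 4 libraries each), where CPM is reads scaled to the library total, a change of -0.90 (SE 0.10) on the log2 scale at a limma adjusted p of 1.87e-05. Its exact two-sided permutation p was 0.0286, the smallest that 70 assignments allow, and the choice of libraries by Fgfr1 set this difference in part. The labels do not say that the libraries came from separate mice, so the p-values reflect how much these samples vary, and that variation may be technical. Control replicate 4 stood apart by its osteoclast markers (score 6.97, other Controls 5.80 to 6.04) and FGFR1-CKO replicate 3 by its osteoblast markers (score 9.39, the other FGFR1-CKO libraries 9.07 to 9.13), a score being the mean log2(CPM + 1) of the listed markers. Without both libraries all 55 histone genes still rose.

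All 55 histone genes were higher in FGFR1-CKO bone, in every core type and on every chromosome where they lie, at close to a doubling. A gene is said to have risen or fallen when its limma adjusted p was under 0.05 and its log2 fold change, on log2(CPM + 1), was at least 0.5 in size. By this rule 55 rose and 0 fell, where 36.6% of the listed genes rose and 38.4% fell (75% changed either way). The table holds only genes that the submitters' own test had called, and all 729 listed genes that were higher rose here too, so this count follows from being listed and higher. Scaling by the authors' size factors, which moved all listed genes by a median of -0.11 on the log2 scale, gave 651 that rose and 1156 that fell in place of 729 and 766, and all 55 histone genes still rose. The groups did not overlap in any of the 55 (35.6% of listed genes were higher without overlap). Of the other 674 higher listed genes, 655 did not overlap either, so this too goes with being listed and higher. The median log2 fold change was 0.95 for the 55, -0.43 for all listed genes and 0.70 for the other 674 listed genes that were higher. Of the 55, 54 (98.2%) lay above that 0.70. As ratios of mean CPM, FGFR1-CKO stood at 1.62 to 3.24 times Control, with a median of 1.94. Adjusted p-values ran from 2.72e-06 to 3.49e-04. In bulk tissue, more cells of a kind and more RNA per cell cannot be told apart.

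The median change lay close to a doubling in each core type. The median log2 fold change was 0.95 over the 5 H1 genes, 0.91 over the 11 H2A genes, 0.92 over the 17 H2B genes, 0.99 over the 10 H3 genes and 0.94 over the 12 H4 genes. All but 3 genes fell between 0.70 and 1.11, and the exceptions were H4f16, H2bu2 and the pseudogene H2bu1-ps. Whether core types differ from each other in this response was not tested.

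**Figure D1:**
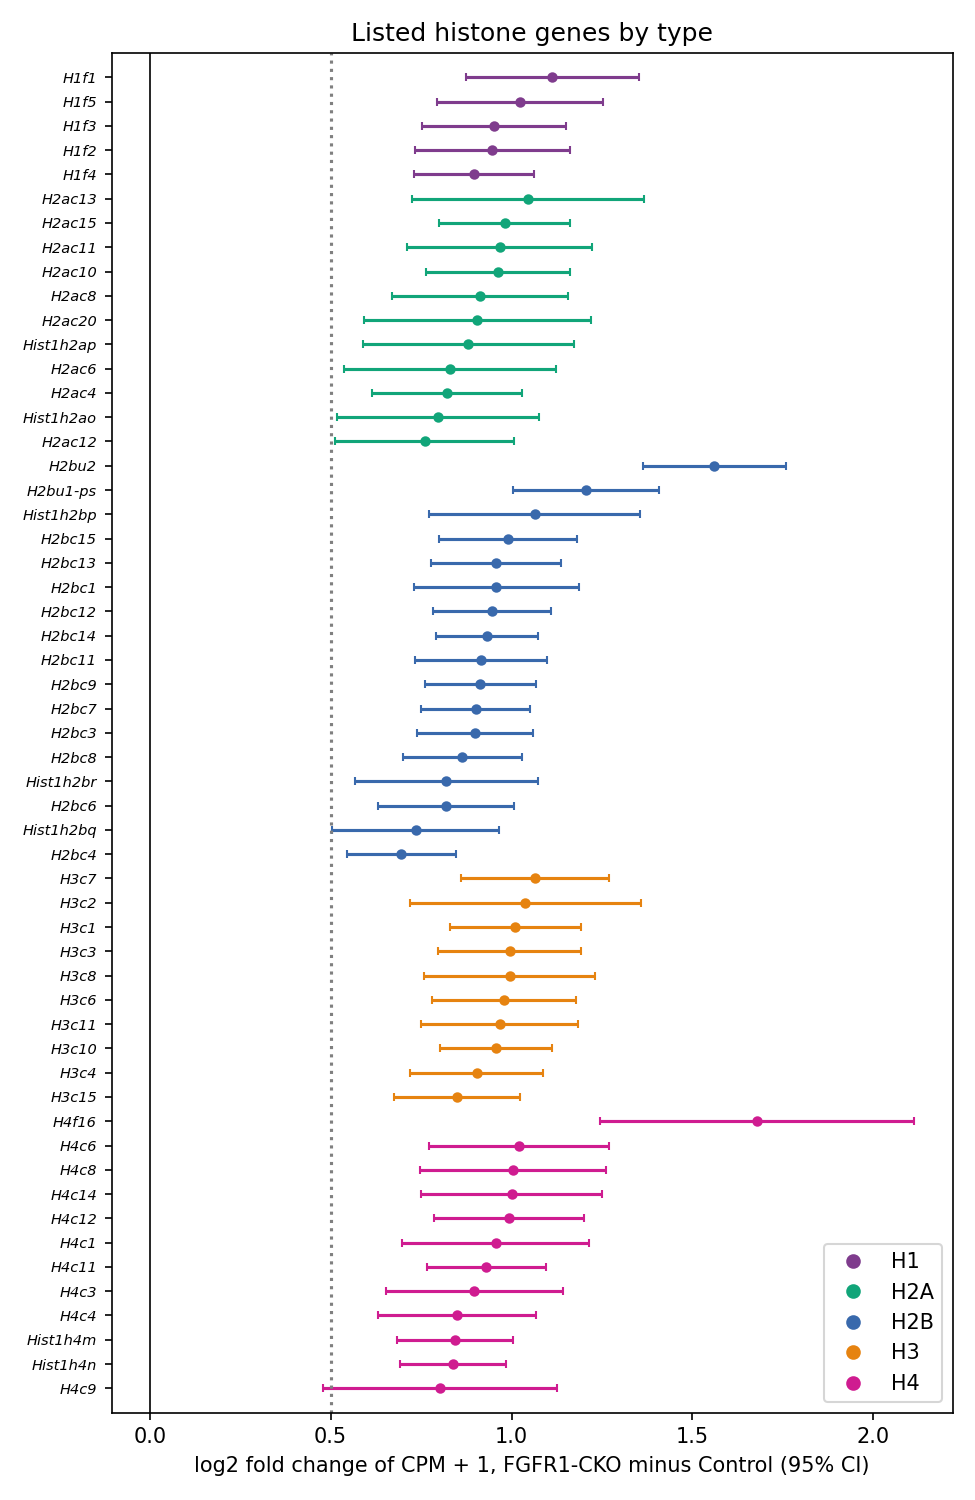
Log2 fold change of each of the 55 histone genes, FGFR1-CKO minus Control, on log2(CPM + 1), sorted within core type; bars are 95% confidence intervals and the dotted line is the threshold of 0.5. All points lie to the right of the line, most near 0.95, with H4f16 (1.68) and H2bu2 (1.56) farthest to the right.

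The linker histones, which bind the DNA between nucleosomes, were listed as H1f1 to H1f5. H1f2, the one with the most reads, measured 327, 340.4, 320.3 and 345 CPM in Control and 687, 611, 749 and 545 CPM in FGFR1-CKO. It rose from 333 ± 11.4 to 648 ± 88.7 CPM (SD, 4 libraries each), a change of 0.95 (SE 0.098) on the log2 scale at a limma adjusted p of 1.01e-05, and it is the one gene of the 55 that the authors' deposited table marks as also found in their list for Ocy454, a mouse osteocyte cell line. The smallest change was in H1f4, which rose from 203 ± 4.83 to 379.6 ± 32.1 CPM (SD, 4 libraries each), and the largest in H1f1.

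H1f1 measured 132, 140.3, 123 and 147 CPM in Control and 320.4, 278, 346 and 243 CPM in FGFR1-CKO. The lowest FGFR1-CKO library was 96.1 CPM above the highest Control library. H1f1 had a change of 1.11 (SE 0.11) on the log2 scale at a limma adjusted p of 9.16e-06. H1f3 rose from 242 ± 14.1 to 471 ± 51.1 CPM (SD, 4 libraries each), and H1f5 from 161 ± 9.26 to 329.8 ± 49.2 CPM (SD, 4 libraries each). In all 5 genes FGFR1-CKO replicate 4 was the lowest of its group. The GENCODE M21 model of H1f4 overlaps that of H2bc6 on the same strand, so reads of the 2 may be mixed if such models were counted.

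Summed over the 5 genes, H1 measured 1071, 1075, 1026 and 1126 CPM in Control and 2275, 2025, 2395 and 1804 CPM in FGFR1-CKO. The groups were far apart, and the mean over libraries of log2 summed CPM was 0.98 higher in FGFR1-CKO. Log2 differences of summed CPM given below are taken in the same way.

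H2A pairs with H2B to form the dimers on the outer faces of the nucleosome. H2ac4, the listed H2A gene with the most reads, measured 103, 111, 104 and 108 CPM in Control and 198, 179, 223 and 162 CPM in FGFR1-CKO, and rose from 107 ± 3.57 to 190.4 ± 26.1 CPM (SD, 4 libraries each), a change of 0.82 (SE 0.094) on the log2 scale at a limma adjusted p of 1.73e-05. H2ac15 rose from 79.6 ± 4.79 to 158 ± 14.8 CPM (SD, 4 libraries each), and H2ac8 from 44.9 ± 1.04 to 86.4 ± 15.2 CPM (SD, 4 libraries each). H2ac20, on chromosome 3, rose from 38.2 ± 6.86 to 72.5 ± 12.8 CPM (SD, 4 libraries each), with Control values of 30.7 to 46.9 CPM, the widest relative spread in Control among the named H2A genes.

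The largest H2A change was in H2ac13, which measured 23.5, 24.3, 25.2 and 22.6 CPM in Control and 54.3, 45.8, 68.1 and 38.0 CPM in FGFR1-CKO. FGFR1-CKO replicate 3 was high and replicate 4 low, and all 4 lay above Control, with a change of 1.05 (SE 0.15) on the log2 scale at a limma adjusted p of 5.60e-05. The smallest on the log2(CPM + 1) scale was in H2ac12, a gene with few reads, which went from 7.30 ± 0.72 to 13.1 ± 1.62 CPM (SD, 4 libraries each), a change of 0.76 (SE 0.11) on the log2 scale at a limma adjusted p of 8.36e-05. That scale understates the change of genes at low CPM, and as a ratio of mean CPM H2ac4 (1.79) and H2ac12 (1.79) were alike.

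Summed over 11 genes, H2A measured 352, 389.6, 359 and 379 CPM in Control and 730.1, 666, 826 and 599 CPM in FGFR1-CKO, a log2 difference of 0.92. Among the listed genes H2A took the smallest share of histone reads of the 5 types. Only 9 of 19 H2A symbols of RefSeq were listed, and how reads of shared sequence were handled is not given. In GENCODE M21 all 11 H2A genes have a predicted gene annotated on the opposite strand, and none of the other 44 does. Whether the authors' counting used strand is not given, so reads of these partners cannot be told apart from those of the H2A genes, and their part in the values was not tested.

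H2B genes, the most numerous type, had log2 fold changes from 0.70 to 1.56. H2bc15, the one with the most reads, measured 204, 215, 218 and 242 CPM in Control and 434, 479, 385 and 455 CPM in FGFR1-CKO, and rose from 219.8 ± 16.3 to 438 ± 39.9 CPM (SD, 4 libraries each), a change of 0.99 (SE 0.086) on the log2 scale at a limma adjusted p of 7.81e-06. H2bc3, whose promoter is printed above, rose from 161 ± 8.22 to 301 ± 19.3 CPM (SD, 4 libraries each), H2bc8 from 112 ± 5.78 to 206 ± 14.6 CPM (SD, 4 libraries each) and H2bc6 from 111 ± 7.57 to 197 ± 19.1 CPM (SD, 4 libraries each).

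H2bu2 stood apart from the other H2B genes. It lies on chromosome 11 (chr11:58948920-58949533, mm10), away from the large cluster, and none of its 150-base windows is shared with another GENCODE gene. It measured 12.8, 15.0 and 16.1 CPM in Control replicates 1, 2 and 4, with replicate 3 between the first and the second of these, and 45.7, 46.1, 46.3 and 39.9 CPM in FGFR1-CKO. The lowest FGFR1-CKO library was 23.8 CPM above the highest Control library. It had a change of 1.56 (SE 0.090) on the log2 scale at a limma adjusted p of 2.72e-06. This gave it rank 3 among the 729 higher listed genes. Its neighbour on chromosome 11, the processed pseudogene H2bu1-ps, is named as an exception to the rule on pseudogenes. It rose from 10.3 ± 0.83 to 25.0 ± 2.02 CPM (SD, 4 libraries each), a change of 1.21 (SE 0.092) on the log2 scale at a limma adjusted p of 5.60e-06.

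The smallest change of the 55 was in H2bc4, which measured 104, 119, 106 and 108 CPM in Control and 173, 173, 175 and 187 CPM in FGFR1-CKO, a change of 0.70 (SE 0.069) on the log2 scale at a limma adjusted p of 9.23e-06. Its transcript model is spliced and the stem-loop letters were not found in it. Summed over 17 genes, H2B measured 1164, 1278, 1231 and 1332 CPM in Control and 2354, 2482, 2239.9 and 2412 CPM in FGFR1-CKO, a log2 difference of 0.92. FGFR1-CKO replicate 3, the highest FGFR1-CKO library for the other 4 types, was the lowest for H2B.

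H3 and H4 form the tetramer at the centre of the nucleosome. H3c6, the H3 gene with the most reads, measured 283, 308, 288 and 316 CPM in Control and 617, 575, 667 and 509 CPM in FGFR1-CKO, and rose from 299 ± 15.4 to 592 ± 66.8 CPM (SD, 4 libraries each), a change of 0.98 (SE 0.091) on the log2 scale at a limma adjusted p of 8.33e-06. H3c7 had the largest change of the type, from 280.2 ± 26.6 to 587 ± 52.2 CPM (SD, 4 libraries each), a change of 1.06 (SE 0.093) on the log2 scale at a limma adjusted p of 7.81e-06. H3c3 rose from 268 ± 26.7 to 534 ± 38.7 CPM (SD, 4 libraries each), and H3c2 from 117 ± 22.4 to 239.6 ± 38.5 CPM (SD, 4 libraries each), the latter with Control values spread from 88.7 to 142 CPM.

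H3c15, on chromosome 3, had the smallest change. It measured 13.7, 12.4, 14.1 and 12.1 CPM in Control and 25.2, 24.0, 24.3 and 24.0 CPM in FGFR1-CKO, with little spread in either group. It had a change of 0.85 (SE 0.079) on the log2 scale at a limma adjusted p of 8.33e-06. The proteins of this family come in replication-dependent forms called H3.1 and H3.2. The 4 genes of H3.1 (H3c1, H3c8, H3c10 and H3c11) had a log2 difference of summed CPM of 0.99, and the 6 of H3.2 (H3c2, H3c3, H3c4, H3c6, H3c7 and H3c15) of 1.01. Summed over all 10, H3 measured 1279, 1531, 1392 and 1536 CPM in Control and 2899, 2866, 3209.9 and 2537 CPM in FGFR1-CKO, a log2 difference of 1.00.

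H4 genes took the largest share of the reads of the listed histone genes. H4c4, which had the most reads of all 55, measured 508, 638, 524 and 605 CPM in Control and 1025, 987, 1149.6 and 935 CPM in FGFR1-CKO. It rose from 569 ± 62.6 to 1024 ± 91.5 CPM (SD, 4 libraries each), a change of 0.85 (SE 0.100) on the log2 scale at a limma adjusted p of 1.93e-05. No 150-base window of it is shared with another gene. H4c6 rose from 271 ± 37.9 to 549 ± 60.1 CPM (SD, 4 libraries each), H4c8 from 269 ± 28.8 to 542 ± 85.4 CPM (SD, 4 libraries each) and H4c12 from 228 ± 17.3 to 456 ± 51.7 CPM (SD, 4 libraries each).

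H4f16 had the largest change of the 55. It lies alone on chromosome 6 (chr6:136801553-136804415, mm10) and shares 0.737% of the windows of its 2863-base model with other genes. It measured 37.9, 47.5, 55.5 and 69.2 CPM in Control and 169.9, 205, 191 and 116 CPM in FGFR1-CKO. Control replicate 4 was highest and FGFR1-CKO replicate 4 lowest of their groups, and the gap between the groups was 46.6 CPM. It had a change of 1.68 (SE 0.20) on the log2 scale at a limma adjusted p of 1.95e-05, the widest error of the 55, and ranked at 2 among the 729 higher genes. The authors' deposited table gives 1.59 as its log2 fold change, and 1.51 for H2bu2.

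The smallest H4 change on the log2(CPM + 1) scale was in H4c9, which went from 29.9 ± 1.37 to 54.1 ± 13.8 CPM (SD, 4 libraries each), a change of 0.80 (SE 0.15) on the log2 scale at a limma adjusted p of 3.49e-04. As a ratio of mean CPM the smallest was in H4c4, at 1.80. In H4c9 FGFR1-CKO replicate 3 was again high, at 71.5 CPM, and replicate 4 low, at 40.4 CPM. Summed over 12 genes, H4 measured 1868, 2299.6, 2032 and 2215 CPM in Control and 4123, 4018, 4753 and 3568 CPM in FGFR1-CKO, a log2 difference of 0.97.

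**Figure D2:**
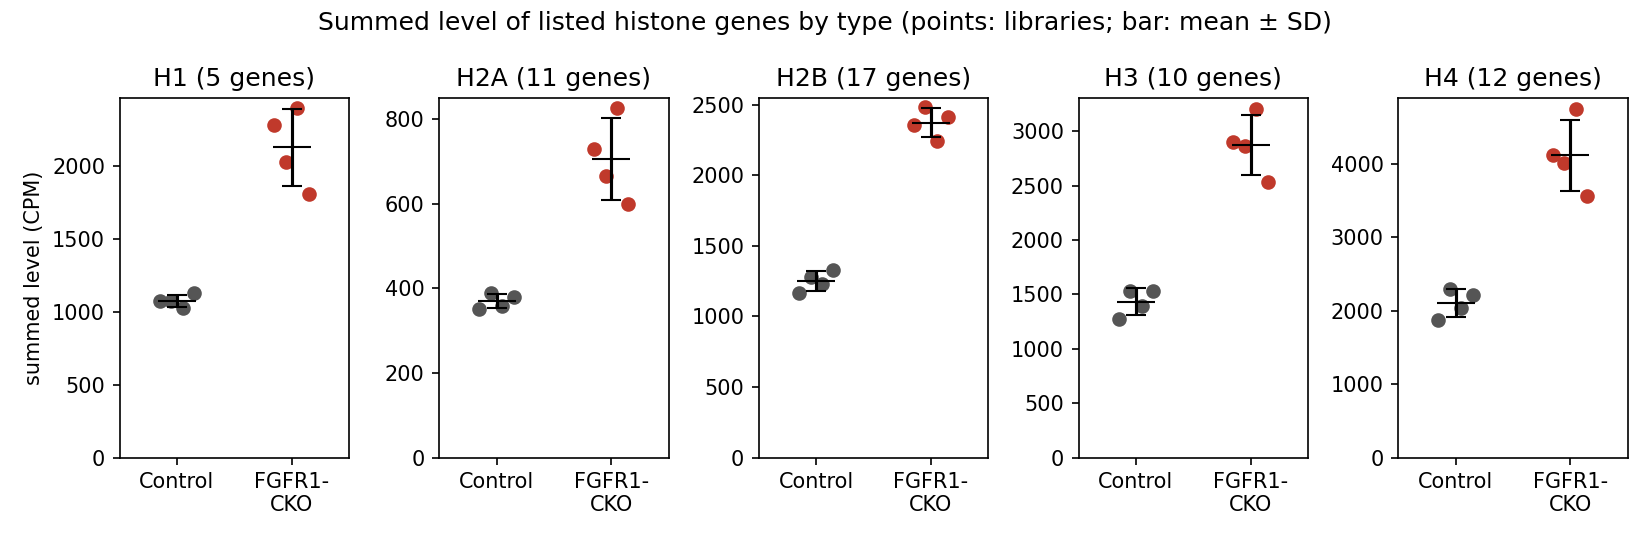
Summed CPM of the listed histone genes of each core type; points are libraries, horizontal lines means and vertical bars SD (n = 4 per group). In each panel all FGFR1-CKO points lie above all Control points, with H2A lowest (352 to 826 CPM) and H4 highest (1868 to 4753 CPM).

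Levels per kilobase, which allow genes to be compared, depended on the length taken for a gene. With RefSeq gene lengths, or the GENCODE model where RefSeq has no such symbol or a gene of over 1000 bases, H4c4 had a mean level of 1981 CPM per kilobase over all libraries, H4c6 1070.4, H4c8 931 and H4c12 836. With the full GENCODE model, which is 1138 bases for H4c4 against 402 in RefSeq, H4c4 had 699.8, H4c6 1048, H4c8 862 and H4c12 1096 CPM per kilobase, an alternative added after the data were seen. The order of these genes was thus not the same under the 2 lengths. The first kind of length was at hand for 53 of the 55 genes and not for H2bc4 and H2bc6. Levels of copies that share sequence are uncertain. In 15 genes over 50% of 150-base windows also occur in another gene, and in Hist1h2bq and Hist1h2br all do. These shares are taken over the GENCODE model, so they too depend on its length. H2bc6, with a model of 2480 bases, shares 4.25%, whereas the models of Hist1h2bq and Hist1h2br have 381 bases. The median log2 fold change was 0.88 in those 15 and 0.97 in the 16 genes that share under 5%. As ratios of mean CPM the medians were 1.93 and 1.97, and the log2(CPM + 1) scale understates changes at low CPM. Whether sharing goes with fold change was not tested.

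Summed, the 55 genes made up 0.573% to 0.659% of a Control library and 1.09% to 1.34% of an FGFR1-CKO library. The core types took shares of these reads that overlapped between genotypes, for all 5 types. H1 held 17.3 ± 0.99% of the summed histone CPM in Control and 17.4 ± 0.87% in FGFR1-CKO (SD, n = 4 per group, as for the following shares). H2A held 5.94 ± 0.15% and 5.76 ± 0.32%, and H2B 20.1 ± 0.43% and 19.6 ± 2.31%. H3 held 23.0 ± 0.47% and 23.6 ± 0.31%, and H4 33.7 ± 0.99% and 33.7 ± 1.19%. The widest spread was in the H2B share of FGFR1-CKO, at 16.7% in replicate 3 and 19.0% to 22.1% in the others.

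**Figure D3:**
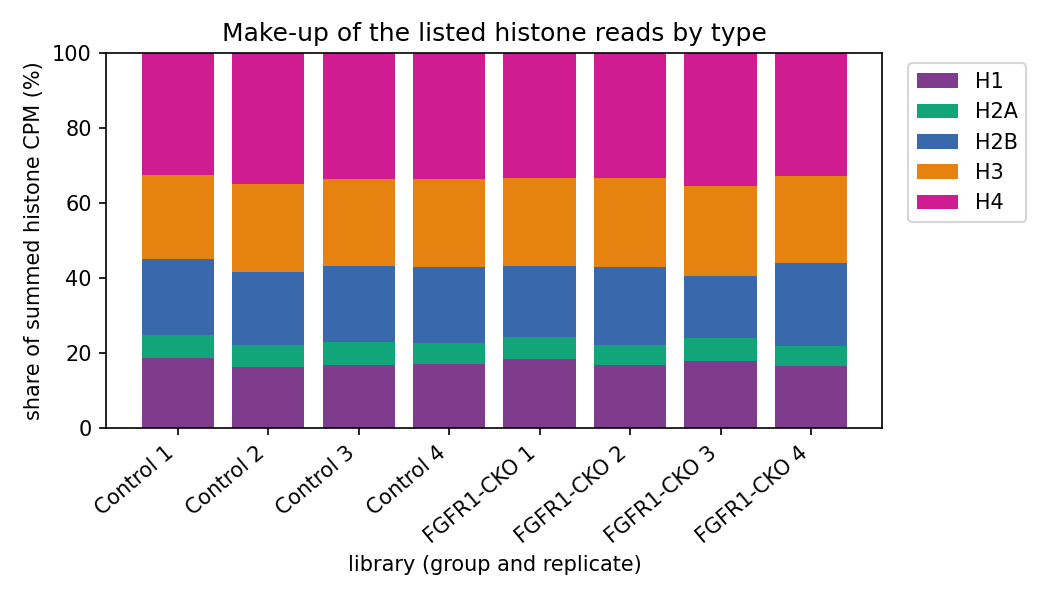
Share of the summed histone CPM held by each core type, as a percentage, in each of the 8 libraries. The stacks look alike in both genotypes, and the H2B band is narrowest in FGFR1-CKO replicate 3 (16.7%).

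The FGFR1-CKO libraries had an order that many genes shared. Replicate 3 was the highest of its group in 37 of 55 genes and replicate 4 the lowest in 37. For H1, H2A, H3 and H4, replicate 3 was highest in 4 of 5, 8 of 11, 9 of 10 and 11 of 12 genes, and replicate 4 lowest in 5 of 5, 9 of 11, 9 of 10 and 10 of 12. In H2B replicate 3 was highest in 5 and lowest in 7 of 17 genes, and replicate 4 lowest in 4. As log2 difference from the Control mean, the median H4 gene stood at 1.19 in replicate 3 and 0.79 in replicate 4, and the median H2B gene at 0.90 in both. In Control, replicate 1 was lowest in 39 of 55 genes, and in 0 of 5 H1 genes. This pattern was seen in the data and was not tested.

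**Figure D4:**
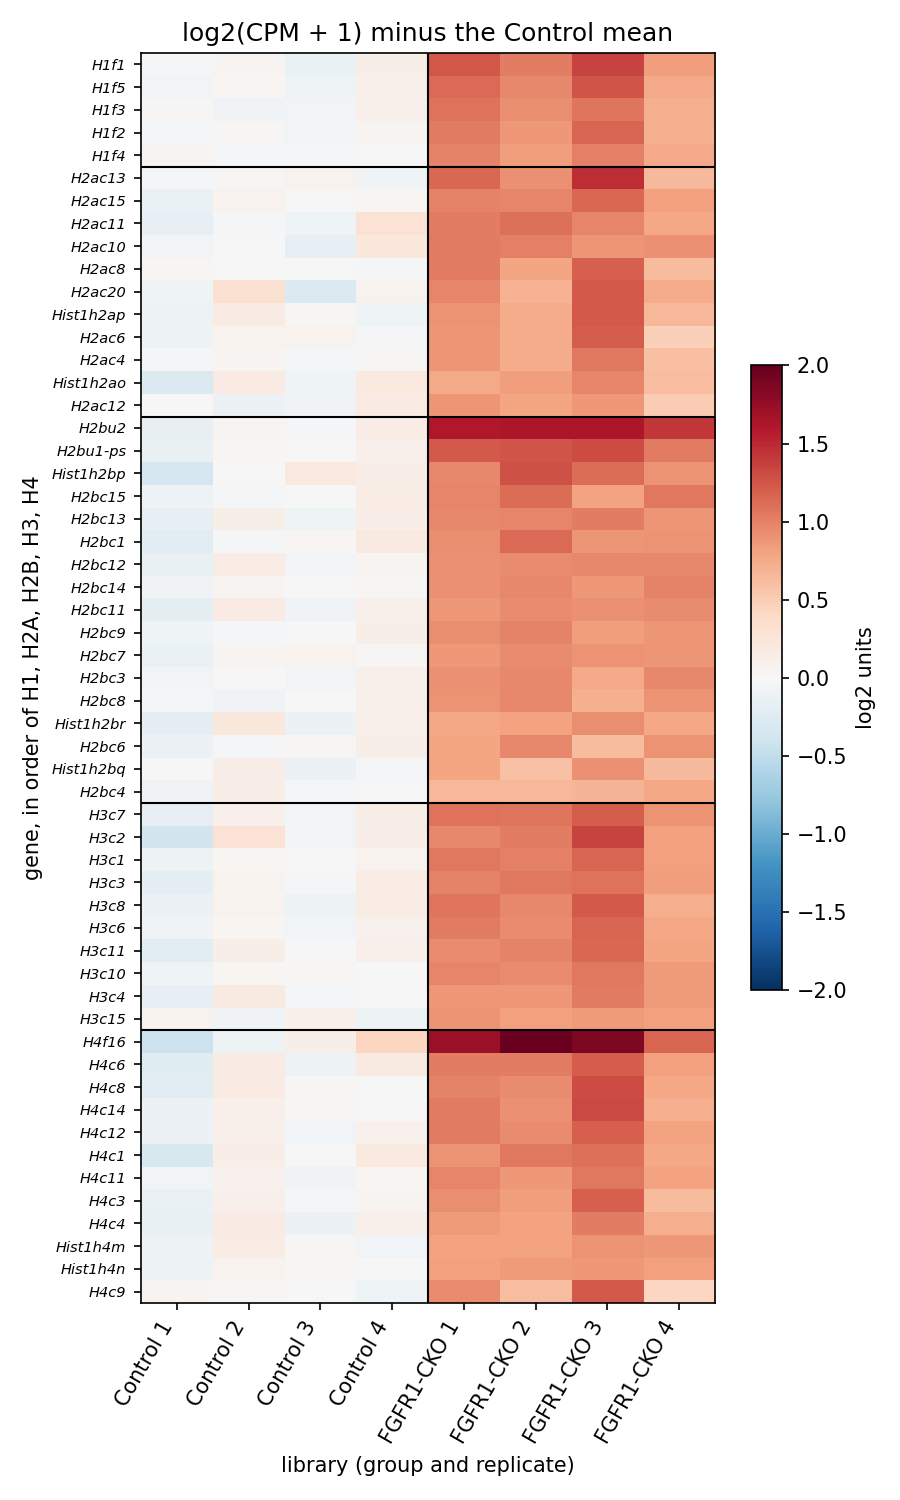
Each row is a histone gene and each column a library; colour gives log2(CPM + 1) minus the mean of the 4 Control libraries. The FGFR1-CKO columns are red in every row, darkest for H4f16 and H2bu2, and replicate 3 is darker than replicate 4 in most rows outside H2B.

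Of the 55 genes, 49 lie on chromosome 13, 3 on chromosome 3, 2 on chromosome 11 and 1 on chromosome 6. Their median log2 fold changes were 0.95, 0.91, 1.38 and 1.68 in that order. On chromosome 13 (mm10) the genes fall into a block of 17 at chr13:21715763-21837530 with a median of 0.96, a block of 5 at chr13:22035164-22043676 with 0.92, and a block of 26 at chr13:23531050-23764406 with 0.93, while H2bc1 (0.96) lies alone. Over the whole chromosome the changes ran from 0.70 to 1.11, and the blocks overlapped.

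**Figure D5:**
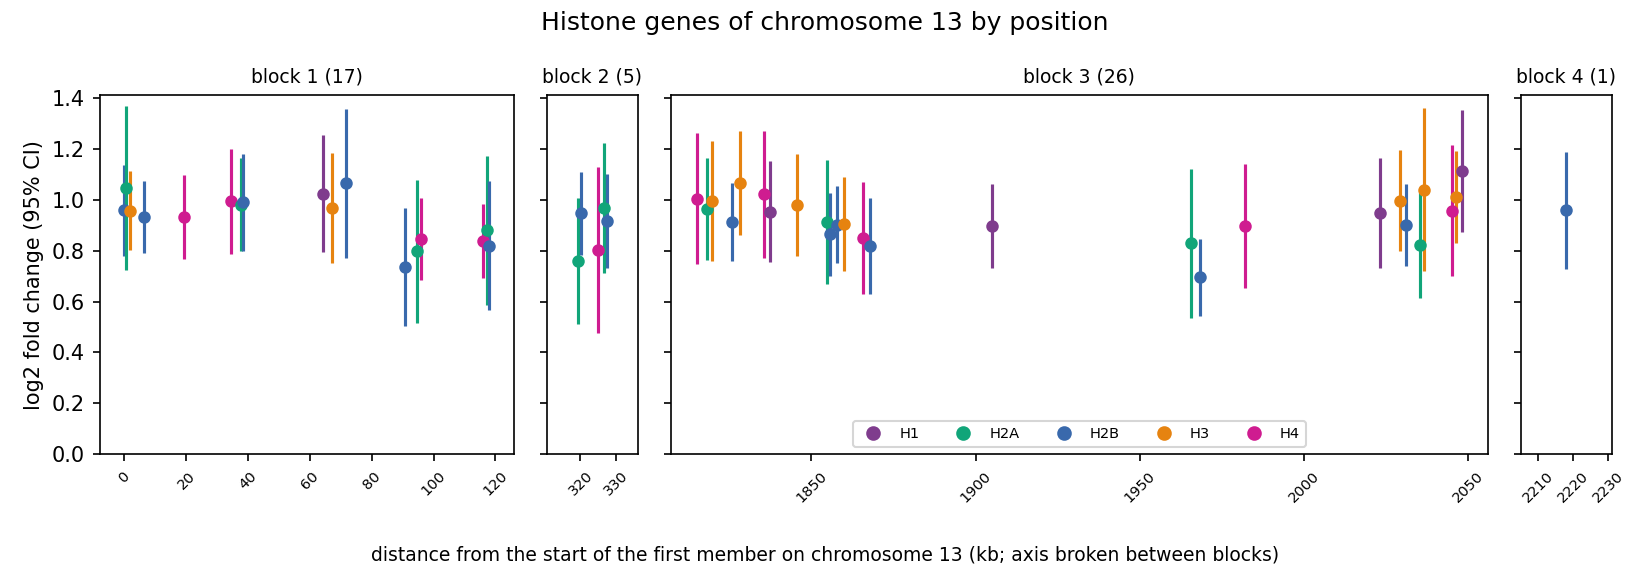
Log2 fold change, with 95% confidence interval, of the 49 histone genes on chromosome 13 by distance from the first, coloured by core type, with the axis broken between blocks. The points lie in a band from 0.70 to 1.11 along all 4 panels.

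Many H2A and H2B genes are arranged head to head and share the stretch between their starts. In 8 such pairs, with starts of the models 176 to 302 bases apart, the log2 fold changes of the partners differed by 0.0098 (H2ac15 and H2bc15) to 0.19 (H2ac12 and H2bc12). In most pairs their levels differed far more. The H2B partner had 0.838 to 10.5 times the mean CPM of the H2A partner, with 72.8 CPM for H2bc12 and 7.30 CPM for H2ac12 in Control. Partners of a pair are not independent of each other. In the pairs with the highest ratios, 10.5 and 8.33, H2ac12 and H2ac11 share 84.8% and 65.5% of their windows with other genes. H2ac15 shares none, and the ratio of its pair was 2.76. Hist1h2ao and Hist1h2ap share 91.5% and 91.0%, and the ratios of their pairs were 0.838 and 0.933. The part of shared reads in these ratios was not tested.

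Other histone genes, which are expressed outside S phase as well, were listed in part. Of 14 replication-independent histone genes 5 were listed, of which 4 rose, where 36.6% of all listed genes rose. H2ax, whose protein is phosphorylated at DNA breaks and whose mRNA is known to have both a stem-loop and a polyadenylated form, measured 152, 169.6, 145 and 159 CPM in Control and 335, 283, 393 and 258 CPM in FGFR1-CKO, a change of 1.00 (SE 0.12) on the log2 scale at a limma adjusted p of 2.15e-05. Its FGFR1-CKO libraries stood in the same order as those of H1f1. The centromeric H3 variant Cenpa rose by a log2 fold change of 0.72, H2aj by 0.69 and H2az1, a variant found at active promoters, by 0.66. Macroh2a2, a variant with a large extra domain, did not pass, at -0.39.

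Genes that act with histone synthesis were taken from lists chosen with earlier results of these data known. Of 47 S phase genes 39 were listed and 39 rose (36 under size factor scaling), with a median log2 fold change of 0.76 and a range of 0.55 to 1.07. E2f2, a transcription factor of the cell cycle, had 1.05, the origin licensing factor Cdc6 1.04 and the cyclin gene Ccna2 0.95. All 20 mitosis genes were listed and rose (19 under size factor scaling; median 0.73), among them Birc5, Ccnb2 and Bub1b. Of 20 genes for histone chaperones and acetyltransferase 6 were listed and 6 rose (5 under size factor scaling; median 0.71). These included Asf1b (0.85), which hands H3 and H4 to other chaperones, Tonsl (0.84) and Chaf1b (0.77), a subunit of the factor that places H3 and H4 on new DNA. Of 20 genes for histone mRNA transcription and 3′ end processing 0 were listed. With 36.6% of listed genes rising, and listing itself requiring a difference, these counts describe direction only.

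Markers of other cells moved in the same libraries. Of 21 erythroid markers 20 were listed and 20 rose (median 1.07), Alas2, Car1 and Klf1 among them. Their score was 7.27 ± 0.18 in Control and 8.35 ± 0.07 in FGFR1-CKO (SD, n = 4 per group), and their summed level ran from 7048 to 9986 CPM in Control and from 20629 to 24544 CPM in FGFR1-CKO. The score was 8.26, 8.41, 8.42 and 8.34 in FGFR1-CKO replicates 1 to 4. Of 17 neutrophil and precursor markers 8 were listed and 8 rose, with summed levels of 8683 to 10763 CPM in Control and 14296 to 16737 CPM in FGFR1-CKO. Of 12 B cell precursor markers 5 were listed and 5 rose (43.3 to 74.8 CPM, and 96.1 to 136 CPM). No marker of megakaryocytes or of T and NK cells was listed. Among all listed genes 36.6% rose and 38.4% fell, and listing itself required a difference, so marker counts describe direction only.

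Markers of bone cells moved the other way. Of 12 osteoblast markers 12 were listed and 11 fell, with a score 0.84 lower in FGFR1-CKO and summed levels of 127391 to 178679 CPM in Control and 70723 to 116100 CPM in FGFR1-CKO. Of 10 osteocyte markers 7 were listed and 6 fell (2216 to 2634 CPM, and 1361 to 1521 CPM), so markers of the labelled tissue were present in both groups. Of 9 osteoclast markers 6 were listed and 6 fell (1299 to 2991 CPM, and 684 to 1101 CPM). With 38.4% of all listed genes falling, these counts too describe direction only. The part of any of these marker shifts in the histone values was not tested.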

How the data were processed

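RNA-seq of 4 Control and 4 FGFR1-CKO libraries was used. Ribosomal RNA had been depleted by RNase H and cDNA started from random hexamers, per the labels' protocols. The submitters' processing notes list the mm10 build, STAR 2.7.9a, Subread 2.0.1, featureCounts, cutadapt, RSEM, DESeq2 and edgeR without giving roles. That list names no gene models. The sources used here do not give strand use or how reads that match several genes were handled. The deposited sheet holds CPM per library, which the authors made from the library total. Per the file headers it also holds the authors' mean of normalized counts, which is a signal averaged across libraries, with log2 fold changes and p-values of the authors' own test. It lists genes that the submitters selected for differing and whose sample average was at least 5, so p-values here are conditional on that selection.

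Each library's total was recovered from the CPM, with 100.0% of values whole within 0.001 reads. No replicate was a duplicate, since each pair differed beyond counting error (chi-square over its degrees of freedom at least 4.70). Genes with the fewest reads are measured least precisely, and all intervals are at 95%.

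limma 3.58.1 (R 4.3.3, eBayes with trend, 2-sided, Benjamini-Hochberg over all 1994 listed genes) was run on log2(CPM + 1), with genotype in the model and no covariate, and tested on simulated data. Groups follow the genotype labels, and replicate numbers are accession order. Count tests were not run. Alternatives were other pseudocounts, a filter on low values, size factor scaling, no variance trend, and left-out libraries. Positions and transcripts come from GENCODE M21 (mm10), in which all 55 genes were found, and promoters from RefSeq. Named genes were, per core type, the 4 with the highest mean CPM and those with the highest and lowest fold change. Fgfr1 and up to 3 genes per list were added. H4c11 and H4c14, the chromosome 11 pseudogene and genes named for sequence, length or sharing are exceptions chosen after values were seen. The members and lists were chosen with earlier results of these data known.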

Additional observations from a re-analysis of the deposited data

Results flagged for a closer look

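Among 122 groups of 4 values tested for a library far from the others, 3 were singled out, and chance alone singles out about 1 group in 20. H2bc4 measured 187 CPM in FGFR1-CKO replicate 4, against 173.2 to 175.0 CPM in the other FGFR1-CKO libraries. H2bu2 measured 39.9 CPM in FGFR1-CKO replicate 4, against 45.7 to 46.3 CPM in the others. H3c4 measured 201 CPM in FGFR1-CKO replicate 3, against 177 to 179 CPM in the others. In each case the library still lay above all Control libraries.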

How the results depend on the processing

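All 768 combinations of a histone gene and an alternative kept the direction and the side of the threshold, with log2 fold changes from 0.54 to 1.85. The alternatives were pseudocounts of 0.25 and 5, a mean of at least 10 CPM, size factor scaling, no variance trend, each library left out in turn, and both libraries that stood apart left out. The number of histone genes that rose ranged from 53 to 55, since 2 have a mean under 10 CPM and drop out under that filter. Size factor scaling shifted the log2 fold changes of all listed genes by a median of -0.11. The median of the 55 then became 0.84, and 651 listed genes rose and 1156 fell, where 729 rose and 766 fell without it. The log2 difference of the summed level became 0.87 for H1, 0.81 for H2A, 0.81 for H2B, 0.89 for H3 and 0.85 for H4. The scaling divides all genes of a library by the same number, so these sums shift alike by construction. The log2 fold change of Fgfr1 became -1.01. At a pseudocount of 5, 596 listed genes rose and 526 fell. S phase genes that rose numbered 36 and mitosis genes 19 both under size factor scaling and at a pseudocount of 5, chaperone genes 5 under size factor scaling, and S phase genes 35 under the filter. Without Control replicate 3, 19 mitosis genes rose. The planned edgeR and DESeq2 alternatives were not run, although whole reads could be recovered. No paired analysis was possible because the labels give no shared replicate numbers. Depth limits the rarest genes, with 48 reads in the lowest library.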
